A study of Mus musculus with 16 samples.

Results

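Expression of 10 genes of blood coagulation and plasminogen activation, *F3*, *F5*, *F8*, *Plau*, *Plat*, *Plaur*, *Tfpi*, *Tfpi2*, *Procr* and *Thbd*, was followed across 16 RNA-seq libraries of murine tracheal epithelial cell cultures (MTECs). The genes were taken as a list of symbols, out of 49315 identifiers counted, and each was found once in the count table. MTECs are primary cells of the mouse trachea that were differentiated at an air-liquid interface. Cultures came from male and female C57BL/6J mice, either WT or littermates labelled KO for LMAN1, and were left naive or received 20 ug/ml house dust mite (HDM) extract overnight, which gave 8 groups of 2 libraries. Total counts ranged from 21860698 to 43442188 per library, and levels are given as CPM, read counts scaled to a common library total, with TMM, a factor that corrects each library for composition. Tracheas were pooled for the cultures, and the inserts were coated with a basement membrane made by 3T3 cells, a mouse fibroblast line.

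Tissue factor (*F3*) starts coagulation when it meets plasma factor VII, and the cascade ends in thrombin and fibrin. The cascade is held back by tissue factor pathway inhibitor (*Tfpi*) and by the protein C system. In that system thrombomodulin (*Thbd*) switches thrombin from a clotting to an anticoagulant enzyme, and the endothelial protein C receptor (*Procr*) binds protein C. Fibrin is removed by plasmin, which urokinase (*Plau*), bound to its receptor (*Plaur*), and tissue plasminogen activator (*Plat*) cut from plasminogen. LMAN1, with its partner MCFD2, is a receptor that carries newly made factors V and VIII (*F5*, *F8*) out of the endoplasmic reticulum. It acts on the proteins, which were not measured here.

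The knockout label was checked first on *Lman1* itself. *Lman1* stood at 101.2 to 144 CPM in the 8 WT libraries. It was 12.79 CPM in both naive Female libraries labelled KO. It was 14.16 and 63.41 CPM in the naive Male libraries labelled KO, and 64.96 to 78.05 CPM in the 4 HDM-treated libraries labelled KO. *Lman1* RNA was therefore lower in every library labelled KO than in any WT library, but absent from none. Counts per gene do not tell exons apart, so they cannot decide whether the knockout held. Every genotype comparison below sets libraries labelled KO against libraries labelled WT. The 10 airway epithelial markers summed to at least 6835 CPM in each library. The 8 endothelial markers summed to 2.511 to 6.821 CPM. Of these, *Cdh5*, *Tie1* and *Erg* were at 0 in 12 of the 16 libraries each, whereas *Egfl7* had 39 to 140 counts and *Kdr* 7 to 50 counts per library. Fibroblast markers differed between replicates, most in the 2 Female WT groups. The 8 markers summed to 577.0 and 592.2 CPM in the naive and the HDM-treated Female WT replicate 2, against 58.9 and 68.84 CPM in replicate 1. The sums were 32.57 to 197.6 CPM in the other 12 libraries, where replicates could differ too, as at 42.47 and 197.6 CPM in naive Male WT MTECs. In such bulk libraries fewer cells of a type and less RNA per cell cannot be told apart.

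The promoters of *F3* and *Procr* are shown because these are the genes with a called HDM response for which RefSeq (build GRCm38.p6) gave a start region. In all, 7 of the 10 genes had an entry, and *Plau*, *Plat* and *Thbd* had none. The run printed for *F3* is chr3:121723287-121723536 on the plus strand, the 250 bases before the start, and that for *Procr* is chr2:155750967-155751116 on the plus strand, 150 bases that end where the annotated gene begins. Capitals mark the AP-1 motif (TGANTCA) and the GC box (GGGCGG), searched on both strands.
F3: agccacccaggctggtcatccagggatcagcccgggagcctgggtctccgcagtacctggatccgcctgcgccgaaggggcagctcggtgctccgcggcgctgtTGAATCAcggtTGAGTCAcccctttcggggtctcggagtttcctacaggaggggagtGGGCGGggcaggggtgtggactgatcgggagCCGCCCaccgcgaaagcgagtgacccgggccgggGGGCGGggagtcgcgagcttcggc
Procr: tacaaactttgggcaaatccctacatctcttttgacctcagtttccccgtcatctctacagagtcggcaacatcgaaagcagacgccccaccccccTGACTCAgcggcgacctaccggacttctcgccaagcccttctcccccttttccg
The *F3* window held 2 AP-1 motifs, which began 146 and 135 bases before the start, and 3 GC boxes, which began 89, 58 and 24 bases before it. The *Procr* window held 1 AP-1 motif and no GC box. Over the 250 bases before the start of all 32851 RefSeq entries, 6.75% held an AP-1 motif and 32.7% a GC box. A TEAD motif (GGAATG, in 12.6% of entries), a TATA box (TATAAA, in 12.4%) and a cyclic AMP element (TGACGTCA, in 1.55%) were searched too and not found in either window. These matches describe the letters of the window, and binding was not measured.

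In GENCODE M21 (GRCm38) the 4 genes with a called HDM response lie on chromosome 3 at 121723537 to 121735048 (*F3*), chromosome 14 at 20836660 to 20843385 (*Plau*), chromosome 2 at 155751117 to 155755471 (*Procr*) and chromosome 2 at 148404466 to 148408188 (*Thbd*). All 10 are protein-coding, and counts were taken per gene, so exons and isoforms were not told apart.

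The 10 genes spanned a wide range of levels. Per kilobase of exon, the mean over 16 libraries was 170.3 CPM for *F3*, followed at a distance by *Plau* (18.68), *Plaur* (15.75), *Procr* (7.177) and *Plat* (7.158). *Thbd* (1.371 CPM per kilobase), *F5* (0.974), *F8* (0.2421), *Tfpi* (0.1461) and *Tfpi2* (0.1228) lay lower. The *F3* range, 84.88 to 231.2 CPM per kilobase, overlapped only that of *Plau*, which reached 89.34. The ranges of *Plau*, *Plaur* and *Procr* overlapped each other. *Tfpi2*, a matrix-bound relative of *Tfpi*, was at or under 3 counts in 11 of the 16 libraries, which is 0.0674 to 0.142 CPM depending on the library, and at 0 in 6. All 10 genes passed the filter on low counts, *Tfpi2* only through the few libraries where it was higher.

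**Figure D1:**
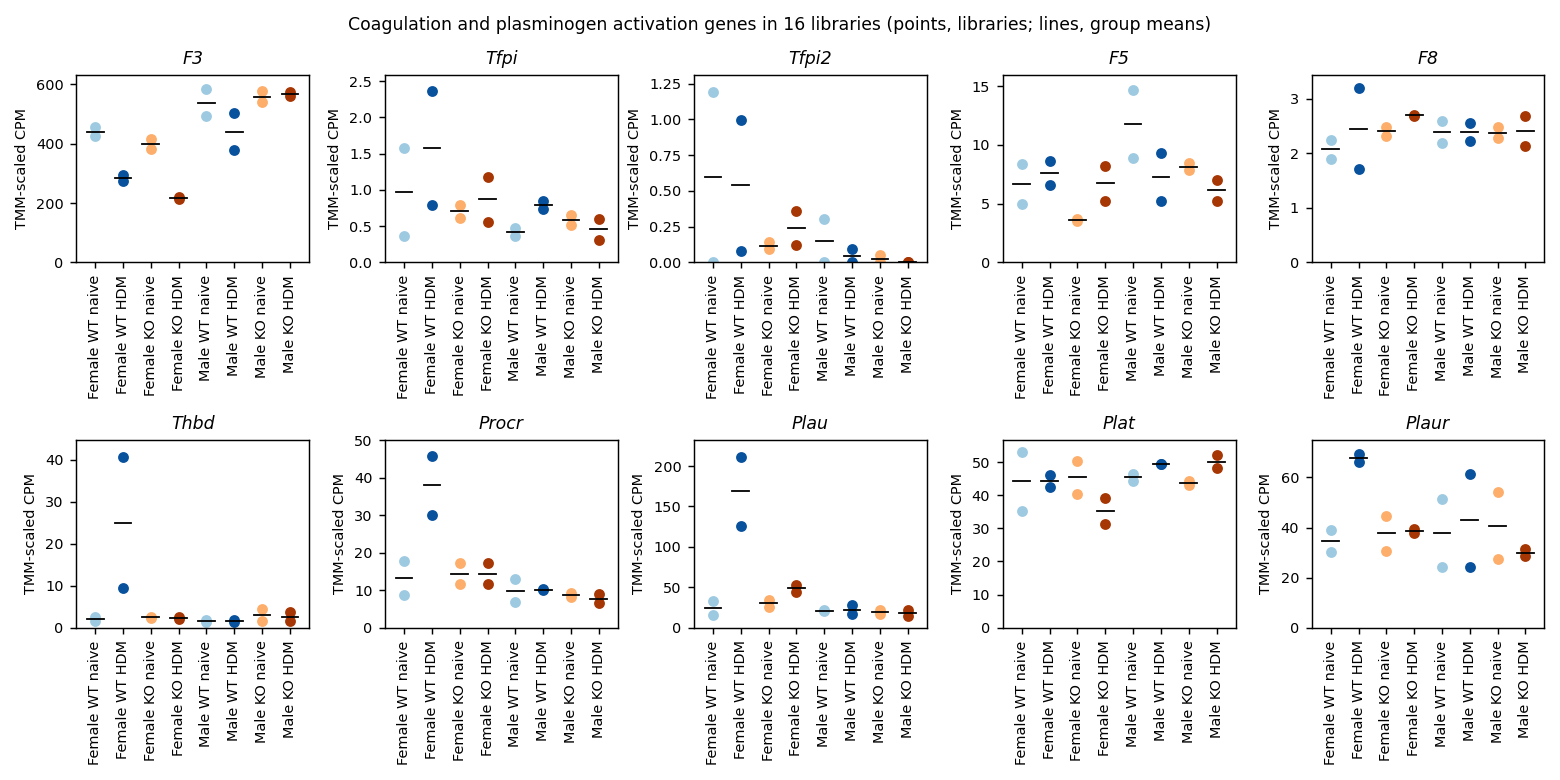
TMM-scaled CPM (linear axis from 0, each gene on its own scale) of the 10 genes in each of 16 libraries, by group. Points are libraries, 2 per group, and lines are group means. *Plau*, *Procr* and *Thbd* stood highest in HDM-treated Female WT MTECs, and *F3* stood lowest in HDM-treated Female MTECs.

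The response to HDM was compared first. In Female WT MTECs, HDM lowered *F3* and raised *Plau*, *Procr* and *Thbd*, so 4 of the 10 genes passed an adjusted p of 0.05 in edgeR's quasi-likelihood test. Among all 15993 genes tested, 43.1% passed in the same comparison, so a call was common there. The median log2 fold change was 0.45 over the 10 genes and -0.02 over all genes tested. In MTECs of females labelled KO, *F3* alone passed (1 of 10, against 10.4% of all genes). In Male WT and in Male KO MTECs 0 of 10 passed (0% and 0% of all genes). At an unadjusted p below 0.05 there were 1 of 10 in Male WT and 0 of 10 in Male KO, and DESeq2 called 0 in both.

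*F3* was 456.7 and 424.4 CPM in naive and 273.4 and 293.9 CPM in HDM-treated Female WT MTECs. It was 415.4 and 380.4 CPM in naive and 220.2 and 214.5 CPM in HDM-treated Female KO MTECs. Naive and treated libraries did not overlap in either genotype. *F3* fell by 0.63 on the log2 scale in Female WT (SE 0.13, adjusted p = 0.00179) and by 0.87 in Female KO MTECs (SE 0.13, adjusted p = 0.00204). In males, *F3* was 584.2 and 492.8 CPM in naive and 502.1 and 377.3 CPM in HDM-treated WT MTECs, which overlapped. It was 538.7 and 578.9 CPM in naive and 575.2 and 558.9 CPM in HDM-treated Male KO MTECs, which overlapped as well.

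*Thbd* was 1.525 and 2.584 CPM in naive Female WT MTECs, and 9.442 and 40.7 CPM after HDM. The groups did not overlap, but the treated libraries differed widely from each other, with 227 and 860 counts. The log2 fold change was 3.59 (SE 0.67, adjusted p = 0.00129), and it was 2.19 without Female WT HDM replicate 2. In the other 7 groups the gene stayed between 1.291 and 4.424 CPM. *Procr* was 8.642 and 17.75 CPM in naive and 30.2 and 45.81 CPM in HDM-treated Female WT MTECs, a log2 fold change of 1.52 (SE 0.38, adjusted p = 0.00699). This call was lost without Female WT naive replicate 1 (log2 fold change 1.10, adjusted p = 0.0651) and without Female WT HDM replicate 2 (1.20, adjusted p = 0.0613). In Female KO MTECs *Procr* was 11.62 and 17.28 CPM in naive and 17.18 and 11.56 CPM in treated libraries, which overlapped.

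*Plau* was 15.65 and 32.96 CPM in naive and 126.3 and 211.5 CPM in HDM-treated Female WT MTECs. The treated libraries lay far above the naive ones, and *Plau* rose by 2.78 on the log2 scale (SE 0.37, adjusted p = 0.00012). In Female KO MTECs it was 26.03 and 34.21 CPM in naive and 52.48 and 44.73 CPM in treated libraries. These did not overlap, yet the log2 difference of 0.69 did not pass (SE 0.35, adjusted p = 0.241). In males it was 14.83 to 28.15 CPM over all 8 libraries. *Plaur*, the urokinase receptor, was 30.07 and 38.89 CPM in naive and 66.34 and 69.19 CPM in HDM-treated Female WT MTECs, a log2 difference of 0.97 that did not pass (SE 0.44, adjusted p = 0.0923). The Male WT replicates of *Plaur* were far apart, at 51.25 and 24.35 CPM in naive and 61.56 and 24.18 CPM in treated MTECs. *Plat* kept between 31.38 and 52.91 CPM in all libraries, and its log2 difference in Female WT MTECs was -0.0017 (SE 0.17, adjusted p = 0.995).

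**Figure D2:**
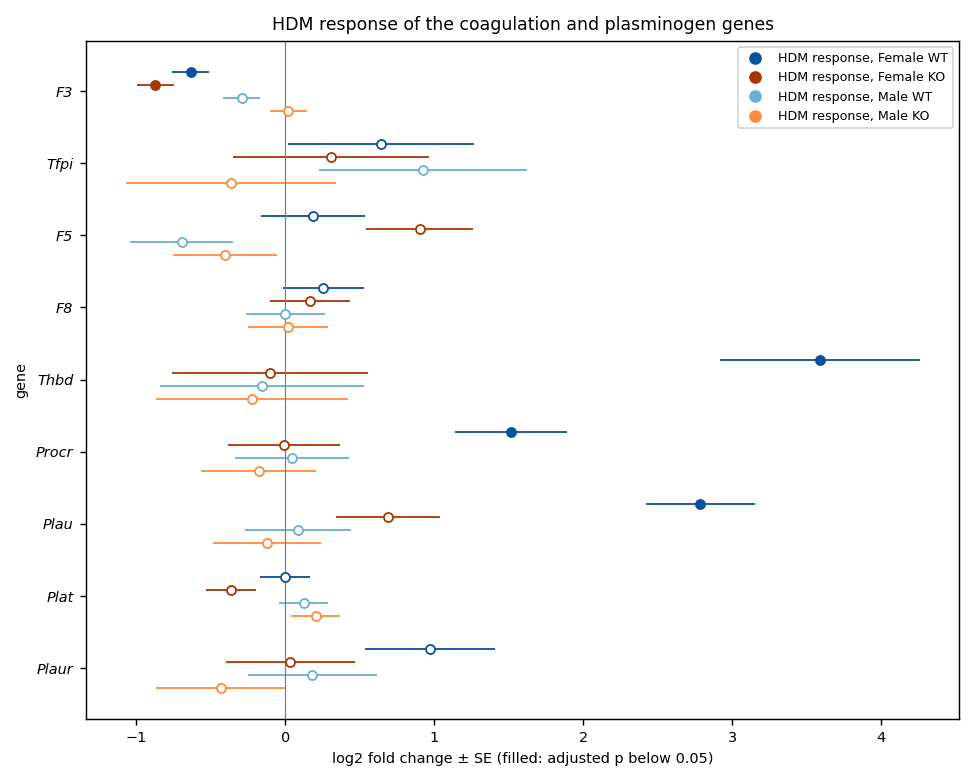
Log2 fold change (HDM-treated against naive, x axis) ± SE of 9 genes in the 4 combinations of sex and genotype. Filled points passed an adjusted p of 0.05. Filled points were *F3* in both female genotypes and *Thbd*, *Procr* and *Plau* in Female WT MTECs, and *Tfpi2* was left out because most of its libraries were at or under 3 counts.

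Markers of cell types were read beside these genes in the Female WT response. In that response 43.1% of all genes were called in either direction. Of the 10 airway epithelial markers 3 rose and 5 fell. Among those that fell were *Scgb3a2* (log2 fold change -6.00, adjusted p = 6.54e-06) and *Scgb1a1* (-5.02, adjusted p = 0.00169), secreted proteins of club cells. *Scgb1a1* was at or under 3 counts in both treated libraries, so its fold rests on few counts. The basal cell genes *Trp63* (-2.06, adjusted p = 1.66e-05) and *Krt5* (-1.78, adjusted p = 0.00152) fell too. *Krt8*, *Epcam* and *Cdh1* had their highest levels of the 16 libraries in treated Female WT MTECs, at 3265, 630.7 and 1801 CPM. In the Female KO response 1 of these 10 rose and 1 fell, beside 10.4% of all genes called. The 8 endothelial markers summed to 6.2 to 6.821 CPM in treated and 4.285 to 4.763 CPM in naive Female WT MTECs, and 0 of the 3 tested passed (1 at an unadjusted p below 0.05). Of the smooth muscle markers 0 of 5 tested passed in edgeR (1 at an unadjusted p below 0.05). *Acta2*, which made up most of their sum, was 52.33 and 127.2 CPM in naive and 272.1 and 440.3 CPM in treated libraries (log2 difference 1.98, adjusted p = 0.0796), while *Myh11* gave -2.34 (adjusted p = 0.121). Of the 8 fibroblast markers 2 rose, *Dcn* and *Lum*, and 1 fell, *Fbln1*. Of the 7 leukocyte and macrophage markers tested 4 fell. These markers summed to 395.3 to 430.5 CPM in treated and 663.3 to 776 CPM in naive Female WT MTECs. Female WT HDM replicate 2, the treated library with the highest sum of fibroblast markers, also held the most *Thbd*, *Procr*, *Plau* and *Tfpi*. *Fbln1*, of the same marker list, was at its lowest of the 16 libraries there (12.73 CPM). The part of fibroblasts or other cell types in the results was not tested. Both Female WT replicate 2 libraries were also left out, an alternative chosen after seeing the data. The log2 fold changes of the Female WT response were then -0.74 for *F3*, 3.02 for *Plau*, 1.81 for *Procr* and 2.63 for *Thbd*. The lone libraries are then assumed to vary like the other groups, so only effect sizes are given for this fit.

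*Tfpi* and *Tfpi2* were highest in the Female WT replicate 2 libraries, naive or treated. *Tfpi* was 1.573 CPM in the naive and 2.366 CPM in the HDM-treated Female WT replicate 2, and 0.3631 and 0.7903 CPM in replicate 1. *Tfpi2* was 1.191 and 0.9939 CPM in those same replicate 2 libraries (53 and 21 counts). In Female WT replicate 1 it was at 0 and 2 counts. *Tfpi* passed in no comparison, and no fold was drawn for *Tfpi2*.

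**Figure D3:**
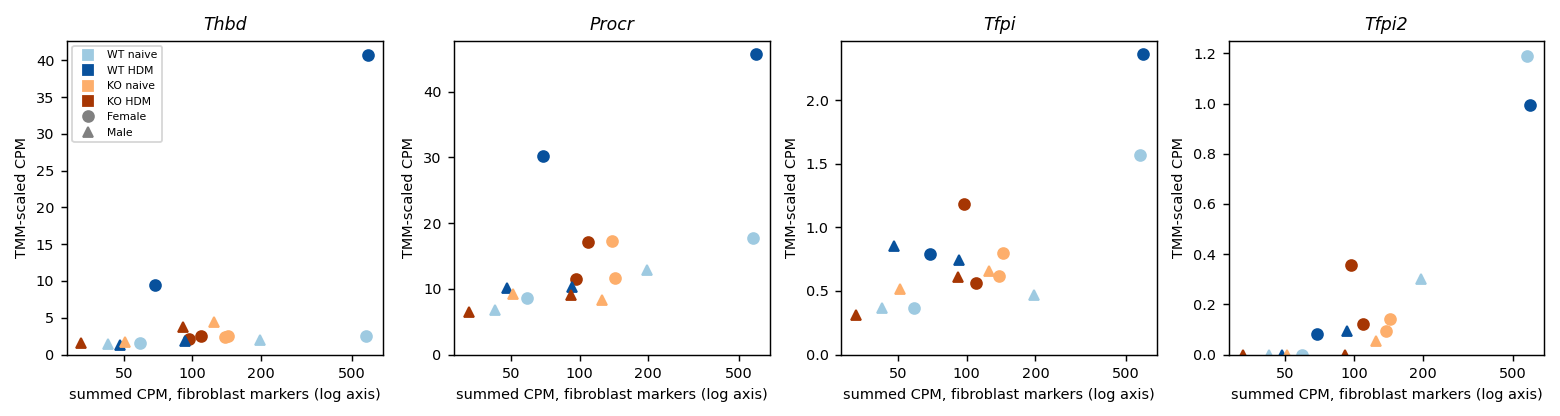
TMM-scaled CPM of *Thbd*, *Procr*, *Tfpi* and *Tfpi2* (linear axes from 0) against the summed CPM of 8 fibroblast markers (log axis) in 16 libraries. Circles are female and triangles male libraries, coloured by genotype and treatment. The Female WT replicate 2 libraries lie at the far right, at 577.0 and 592.2 CPM, and hold the most *Tfpi* and *Tfpi2*, whereas *Thbd* and *Procr* were high on the right only in the HDM-treated library.

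Male and female MTECs were then compared. Between naive MTECs 0 of 10 genes passed in WT (0.1% of all genes tested) and 0 of 10 in KO (0.188%). At an unadjusted p below 0.05 there were 2 genes in each, and DESeq2 called 0 in WT and 1, *F3*, in KO. After HDM, 4 of 10 passed in WT (41.6% of all genes) and 3 of 10 in KO (25.3%). *F3* was higher in HDM-treated males than females by 0.63 on the log2 scale in WT (SE 0.13, adjusted p = 0.00193) and by 1.38 in KO (SE 0.13, adjusted p = 5.98e-05), with no overlap of the libraries. *Plau* was lower in males, with log2 differences of -2.90 in WT (SE 0.37, adjusted p = 9.64e-05) and -1.42 in KO (SE 0.36, adjusted p = 0.0141). *Procr* and *Thbd* were lower in HDM-treated male WT MTECs, by log2 differences of -1.90 (adjusted p = 0.00215) and -4.02 (adjusted p = 0.000804). The *Thbd* difference was -2.62 without Female WT HDM replicate 2, and that of *F3* in WT was 0.41 without Male WT HDM replicate 1. Both still passed. *Plat* was 39.08 and 31.38 CPM in HDM-treated Female KO and 52.05 and 48.22 CPM in HDM-treated Male KO MTECs, a log2 difference of 0.51 (SE 0.17, adjusted p = 0.043). The *Plat* call was lost when any of 7 libraries was left out, among them Female KO HDM replicate 2 (0.36, adjusted p = 0.248). The *Plau* call in KO was lost without Female KO HDM replicate 1 (-1.30, adjusted p = 0.0727) and without Male KO HDM replicate 2 (-1.18, adjusted p = 0.128).

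The response itself was compared between the sexes by an interaction term. In WT, 2 of 10 genes passed (24.2% of all genes). *Plau* rose more in female than in male MTECs by 2.70 on the log2 scale (SE 0.50, adjusted p = 0.00296), and *Thbd* by 3.74 (SE 0.94, adjusted p = 0.0143). The *Thbd* term was lost without Female WT HDM replicate 2 (2.35, adjusted p = 0.0615) and without Female WT naive replicate 1 (3.43, adjusted p = 0.0604). In KO, 1 of 10 passed (3.56% of all genes): *F3* differed in its response by -0.89 (SE 0.18, adjusted p = 0.0208), a call that was lost when any of 6 libraries was left out. *Procr* gave 1.47 in WT and did not pass (SE 0.53, adjusted p = 0.0651).

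Libraries labelled KO were then compared with WT. *Lman1* itself differed by a log2 value of -3.26 in naive females (SE 0.48, adjusted p = 0.403) and -1.65 in naive males (SE 0.45, adjusted p = 0.879). In HDM-treated MTECs it differed by -0.59 in females (SE 0.44, adjusted p = 0.331) and -0.96 in males (SE 0.44, adjusted p = 0.274). Without adjustment, p in edgeR's test was 2.52e-05, 0.00329, 0.201 and 0.0491 in that order. The female and male differences after HDM were not tested against each other, nor was their part in the calls below. Among naive MTECs 0 of 10 genes passed in females (0% of all genes) and 0 of 10 in males (0%), and DESeq2 called 0 in both. At an unadjusted p below 0.05 there were 1 gene in females and 0 in males. After HDM, 4 of 10 passed in females (29.2% of all genes) and 0 of 10 in males (0%, 1 of 10 at an unadjusted p below 0.05, and 0 by DESeq2). HDM-treated female MTECs labelled KO held less *Plau* than WT by a log2 difference of -1.80 (SE 0.35, adjusted p = 0.00361), less *Thbd* by -3.44 (SE 0.67, adjusted p = 0.00361), less *Procr* by -1.40 (SE 0.38, adjusted p = 0.0168) and less *F3* by -0.38 (SE 0.13, adjusted p = 0.0387). The libraries of the 2 genotypes did not overlap in any of these 4 genes, but the share of all genes without overlap was not counted. The *F3* call was lost when any of 8 libraries was left out, and the *Procr* call without Female WT HDM replicate 2 (-1.08, adjusted p = 0.141) and without Female KO HDM replicate 2 (-1.14, adjusted p = 0.139). The *Thbd* difference was -2.04 without Female WT HDM replicate 2. With both Female WT replicate 2 libraries left out, *Plau* gave -1.38, *Thbd* -2.04, *Procr* -1.08 and *F3* -0.335. Each was smaller in size than with all libraries. That fit leaves lone libraries, so it does not show that any of these calls holds without them.

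**Figure D4:**
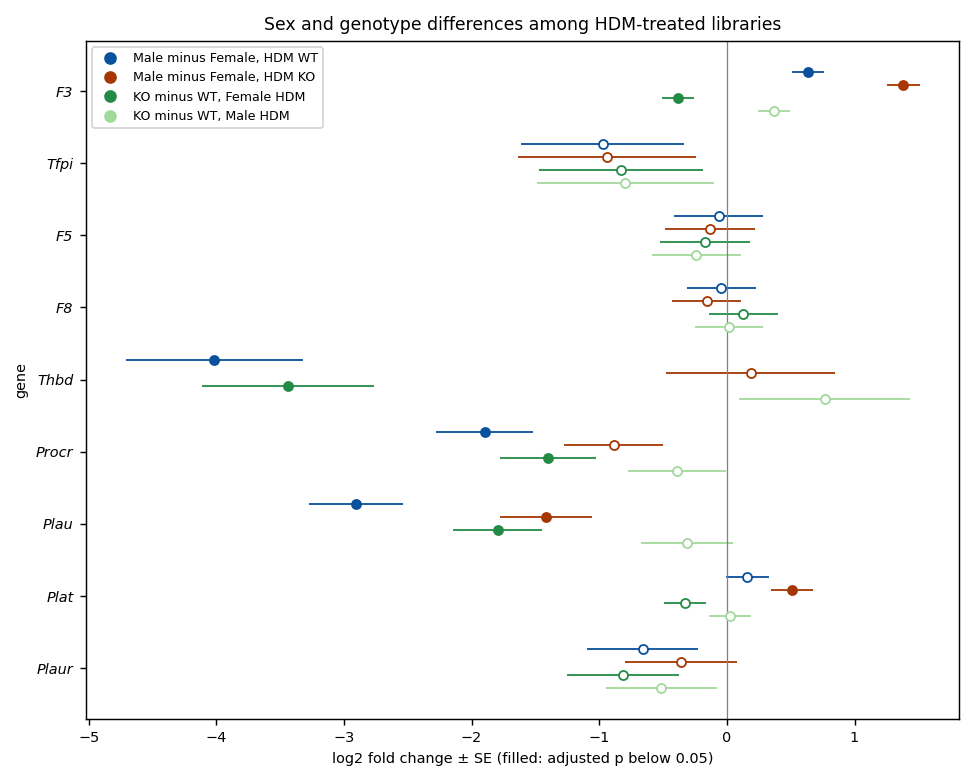
Log2 differences ± SE of 9 genes (x axis) among HDM-treated MTECs, male against female in each genotype and KO against WT in each sex. Filled points passed an adjusted p of 0.05. *Plau*, *Procr* and *Thbd* were lower in male than in female WT and lower in female KO than in female WT MTECs.

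As an interaction, the HDM response differed between genotypes in 2 of 10 genes in females (11.2% of all genes) and in 0 of 10 in males (0%, 0 of 10 at an unadjusted p below 0.05, and 0 by DESeq2). In females *Plau* gave -2.09 (SE 0.49, adjusted p = 0.0227) and *Thbd* -3.69 (SE 0.92, adjusted p = 0.0288). Both calls depended on which libraries were kept. Without Female WT HDM replicate 2 the terms were -1.68 and -2.29, and without Female WT naive replicate 1 they were -1.67 and -3.38. They were larger without Female KO HDM replicate 1, at -2.22 and -3.82, and these calls were lost as well. *Plau* was lost in 5 and *Thbd* in 7 of the 16 fits that left out 1 library.

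*F5* and *F8*, the known LMAN1 cargo, passed in no comparison. *F5* was 4.939 and 8.358 CPM in Female WT, 3.532 and 3.684 CPM in Female KO, 8.879 and 14.66 CPM in Male WT and 7.822 and 8.438 CPM in Male KO naive MTECs. Libraries labelled KO lay lowest in each sex, with log2 differences of -0.89 in females (SE 0.36, adjusted p = 1) and -0.53 in males (SE 0.34, adjusted p = 0.89). After HDM the *F5* ranges of WT and KO overlapped in both sexes. *F8* was 1.704 to 3.203 CPM over all libraries, on 36 to 91 counts, and the largest of its 4 genotype differences on the log2 scale was 0.22 (SE 0.27, adjusted p = 1). The *F8* locus overlaps *Fundc2* on the opposite strand, which had 1230 to 2561 counts. The strand setting of the counting was not given in the sources used here, so reads of these genes could not be told apart with certainty.

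Lists of 38 other genes of the same system were read alongside, of which 19 passed the filter on low counts. In the Female WT response 9 rose and 1 fell, and in the Female KO response 3 rose and 1 fell, with 0 called in males, where 0% of all genes passed. The share called, 10 of 19 and 4 of 19, stands beside 43.1% and 10.4% of all genes in these responses. The median log2 fold change over the 19 was 0.49 in Female WT, against -0.02 over all genes. Both the 10 called and this median include *F2rl2*, which passed the filter only through the libraries where it was high. Of 14 other clotting factors only *Vwf* and *Kng1* were tested. *F7*, the partner of tissue factor, had at most 1 count per library, *Plg*, which encodes plasminogen, at most 1, and *Fgb*, a fibrinogen chain, 0 in all. The anticoagulant gene *Serpina5* was also at 0 in all 16 libraries. *Kng1*, the kininogen gene, was 0.2496 to 0.426 CPM in HDM-treated against 1.078 to 1.235 CPM in naive Female WT MTECs, and fell by 1.86 on the log2 scale in Female KO MTECs (SE 0.50, adjusted p = 0.0363).

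Among genes that act on plasminogen, 3 of 8 tested rose in Female WT and 2 of 8 in Female KO MTECs, beside 43.1% and 10.4% of all genes called in either direction. *Serpine2*, a serpin that inhibits urokinase and thrombin, was 44.16 and 63.81 CPM in naive and 236.3 and 222.4 CPM in treated Female WT MTECs. It rose by 2.08 on the log2 scale there (SE 0.37, adjusted p = 0.000897) and by 1.55 in Female KO MTECs (SE 0.36, adjusted p = 0.0203). *S100a10*, part of a cell-surface plasminogen receptor with annexin A2, rose from 127.9 and 163.3 CPM to 410.6 and 420.2 CPM in Female WT (log2 fold change 1.51, SE 0.19, adjusted p = 9.22e-05). It also rose in Female KO MTECs (1.06, SE 0.19, adjusted p = 0.00539). *Plau* and *Serpine2* were thus both higher in HDM-treated than in naive Female WT MTECs.

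Thrombin signals to cells through protease-activated receptors. *F2r*, the main thrombin receptor, rose in Female WT MTECs by 0.48 on the log2 scale (SE 0.09, adjusted p = 0.000895), from 167.7 and 174.4 to 220.9 and 257.8 CPM. *F2rl2*, another receptor of this family, had 2 and 4 counts in naive and 33 and 38 counts in treated Female WT libraries. Its fitted log2 fold change of 4.19 (SE 0.71, adjusted p = 0.00065) rests on those few naive counts. *F2rl2* passed the filter on low counts only through these treated libraries, so its call is not read as a result. *Ggcx*, the carboxylase that vitamin K-dependent factors need, rose by 0.68 (SE 0.11, adjusted p = 0.000454). *Mcfd2* was 67.07 and 63.56 CPM in naive and 77.9 and 90.02 CPM in treated Female WT MTECs (log2 fold change 0.36, adjusted p = 0.00738). *Lman1* itself rose by 2.5 on the log2 scale between naive and HDM-treated Female libraries labelled KO (SE 0.48, adjusted p = 0.00744), from 12.79 CPM in both to 66.59 and 78.05 CPM.

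For each of the 10 genes the gene with the most similar pattern over the 16 libraries was looked up among 13007 genes, as a description, with Pearson's r of log2 levels. It was *Bnip3* for *F3* (0.956), *Glipr1* for *Plau* (0.991), *Inhba* for *Procr* (0.972), *Dio2* for *Thbd* (0.973), *Cldn7* for *Plaur* (0.946), *Adam19* for *Tfpi2* (0.907) and *Cacna1c* for *Tfpi* (0.921). The values were lower for *Fhod3* with *F5* (0.812), *Lgr6* with *Plat* (0.786) and *Zfp418* with *F8* (0.776). By ranks (Spearman's rho), *Thbd* with *Dio2* gave 0.80, *Tfpi2* with *Adam19* 0.827 and *Tfpi* with *Cacna1c* 0.844. The pairs of *Plau*, *Plaur*, *Procr* and *F3* gave 0.974, 0.953, 0.929 and 0.918. *Tfpi2* was at or under 3 counts in 11 of the 16 libraries. The libraries share treatment and cell makeup, and so no p is given.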

How the data were processed

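RNA of MTECs was sequenced in 16 libraries, 2 for each of 8 groups. The deposited values are raw read counts per gene. For these deposited counts the submitters' processing notes name Trimmomatic 0.36, STAR 2.5.2b, featureCounts of Subread 1.5.2, DESeq2 and the build GRCm38, with no order given. The strand setting was not given in the sources used here. From the counts, 49056 of 49315 identifiers were matched to GENCODE M21, and 259 were not (0.0106% of counts). In edgeR 4.0.16 with R 4.3.3, genes were kept by filterByExpr (15993), scaled by TMM, fitted with 8 group means over all 16 libraries and tested by quasi-likelihood, with Benjamini-Hochberg adjustment over all tested genes within each of 16 comparisons (threshold 0.05). The fit was tested on simulated data. Column names without a number were taken as replicate 1, since the other column of the group carries 2. The text names the 10 genes, Lman1 and Mcfd2, the up to 5 called list genes with the smallest p in each Female response, list genes described as absent, and for each member the gene most alike over libraries (log2 CPM with a pseudocount of 1, mean of at least 1 CPM). The members and lists were chosen with earlier results of these data known. Nothing says that the replicates came from separate animals beyond their label as biological replicates, so p-values speak only for these samples. They rest on a spread per gene that is shared by all 8 groups and drawn towards that of other genes. Replicates did not vary alike: their mean chi-square per gene against sampling noise was 5.28 in Male KO HDM and 54.3 in Male WT HDM. The p-values thus do not measure the spread of the compared groups alone. Promoters came from RefSeq. Alternatives were other scalings, DESeq2 1.42.0, no low-count filter, the compared libraries alone, a replicate block and leaving out libraries.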

Additional observations from a re-analysis of the deposited data

Results flagged for a closer look

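The test for an outlying sample within a group needs at least 4 samples, so with 2 libraries per group it was not run. The following HDM responses differed between sexes or genotypes by an interaction term in edgeR at an adjusted p under 0.05. Between Female and Male WT MTECs the log2 fold change differed for Plau (2.70), Thbd (3.74), Serpine2 (1.64, SE 0.51, adjusted p = 0.0364), S100a10 (1.45, adjusted p = 0.00268), F2r (0.78, adjusted p = 0.00102), F2rl2 (5.06, adjusted p = 0.0129, on 0 to 7 counts outside HDM-treated Female WT MTECs), Ggcx (0.70, adjusted p = 0.00668) and Mcfd2 (0.41, adjusted p = 0.0391). Between Female and Male KO MTECs it differed for F3 (-0.89) and S100a10 (1.29, adjusted p = 0.0251). Between KO and WT in females it differed for Plau (-2.09), Thbd (-3.69), F2r (-0.47, adjusted p = 0.0337), F2rl2 (-3.96, adjusted p = 0.0377), Mcfd2 (-0.46, adjusted p = 0.0419) and Lman1 itself (2.67, adjusted p = 0.0238). F2rl2 passed the filter on low counts only through HDM-treated Female WT MTECs, so its interaction terms are not read as results.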

How the results depend on the processing

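All 21 called differences of the 10 genes kept their direction under each alternative. With upper-quartile scaling, DESeq2, no filter on low counts, the compared libraries alone and the replicate block all 21 calls held; with library size only, 20 held, and F3 in KO minus WT, Female HDM, gave -0.32 (adjusted p = 0.052).

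Without the filter on low counts the number of genes called among the 10 was 4 in the Female KO response, 1 in the Male KO response, 1 and 4 in the sex difference of naive WT and KO, 6 in that of HDM-treated KO, 1 and 2 in the genotype difference of naive females and HDM-treated males, 5 and 4 in the sex interaction of WT and KO, and 4 and 1 in the genotype interaction of females and males. Over all genes the same setting gave 2717, 149 and 705 calls in the Female KO, Male WT and Male KO responses, 644 and 859 in the naive sex differences, 135, 98 and 1896 in the genotype differences of naive females, naive males and HDM-treated males, and 1977, 3029 and 668 in the KO sex interaction and the female and male genotype interactions. The cause was not tested in any of these. With the compared libraries alone the 10 genes gave 3 calls in the Female KO response and 5 in the HDM KO sex difference; over all genes there were 2804 in that response, 5 and 9 in the naive WT and KO sex differences, 3916 in the HDM WT sex difference and 1 each in the genotype differences of naive females and HDM-treated males. DESeq2 gave 1 of the 10 in the naive KO sex difference, and over all genes 2 and 1 in the Male WT and KO responses, 204 and 216 in the naive sex differences, 1, 1 and 562 in the genotype differences named above and 1192 in the KO sex interaction.

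With 1 library left out at a time, 1 library remained in its group, so counts of genes called are not given here. Log2 fold changes of the Female WT response ran from -0.687 to -0.57 for F3 and 2.357 to 3.431 for Plau. They ran from 1.098 to 2.136 for Procr and 2.192 to 4.301 for Thbd. In the genotype difference of HDM-treated females the ranges were -0.444 to -0.335, -2.131 to -1.382, -1.718 to -1.077 and -4.15 to -2.037 in the same order. Leaving out both Female WT replicate 2 libraries also left lone libraries. The WT sex interaction was then 2.929 for Plau and 2.789 for Thbd, and the female genotype interaction -2.322 and -2.731.

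Replicate numbers are not said to pair samples, and same-numbered libraries did not deviate together throughout (r from -0.164 to 0.483 over the 12 pairwise comparisons). With the replicate block the number of the 10 genes called was the same as without it in each comparison, 4 in the Female WT response. The block gives same-numbered libraries a shared shift over all groups. It does not model a pairing of naive and treated libraries within a sex and genotype, so such pairing was not tested. Between naive and treated libraries r was 0.286 in Female WT and 0.437 in Male WT. It was -0.0511 in Female KO and -0.144 in Male KO. Numbers crossed in the Male KO response and the naive KO sex difference gave 0 and 0 of the 10. Depth limits Tfpi2, at or under 3 counts in 11 libraries.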
